A study of Mus musculus with 3 samples.

Results

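The AP-1 transcription factors were described in mouse haematopoietic stem cells through 10 genes: the FOS genes Fos, Fosb, Fosl1 and Fosl2, the JUN genes Jun, Junb and Jund, and the related genes Atf3, Batf and Batf3. They were chosen by name from the 19938 genes measured through probe sets that name a single gene, with their values on these arrays already known. Each was measured by 1 such probe set. The samples were 3 single-colour arrays of wild-type bone marrow cells of C57Bl/6 mice 6 to 10 weeks old, and each array is numbered here as its replicate is. The sort, named KLS SLAM, kept cells with c-Kit, Sca-1 and CD150 and removed those with CD41, CD48 or a marker of a mature lineage, and their RNA was amplified before biotin labelling. The 3 arrays are the only group, so no genotypes or treatments were compared. No label says that the arrays came from separate animals, so the spread given here may be technical.

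AP-1 proteins are basic leucine zipper factors that bind DNA as pairs, and FOS proteins need a JUN partner while JUN proteins can also pair with one another. Fos, Fosb, Jun and Junb are immediate early genes: their transcription starts within minutes of a growth factor, cytokine or stress signal and needs no new protein. Mitogen-activated protein kinases act on both ends of the pathway, switching on the factors at the Fos and Jun promoters and phosphorylating the JUN and FOS proteins. In blood formation the group is known for myeloid differentiation, for restraint of stem and progenitor expansion by JunB, and for lymphocyte and dendritic cell programmes that use BATF and BATF3.

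Promoter stretches are given for the 4 members named above as immediate early genes, Fos, Fosb, Jun and Junb. Fos and Fosb varied most among the FOS genes, and Jun had the highest mean signal of the members. Each stretch holds the 150 bases before the annotated start of the gene in RefSeq (build GRCm38.p6), written 5′ to 3′ on the strand of the gene. Capitals mark the letters of 3 searched motifs, TGACG (one end of the cyclic AMP response element), CCAAT and the TATA box TATAAA.
Fos (chr12:85473740-85473889, + strand): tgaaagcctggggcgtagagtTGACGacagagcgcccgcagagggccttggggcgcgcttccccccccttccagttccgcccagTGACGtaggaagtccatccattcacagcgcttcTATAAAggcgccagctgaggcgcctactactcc
Fosb (chr7:19310046-19310195, - strand): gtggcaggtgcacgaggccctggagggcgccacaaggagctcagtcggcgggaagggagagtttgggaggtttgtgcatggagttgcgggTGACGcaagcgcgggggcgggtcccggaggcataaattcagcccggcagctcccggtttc
Jun (chr4:95052223-95052372, - strand): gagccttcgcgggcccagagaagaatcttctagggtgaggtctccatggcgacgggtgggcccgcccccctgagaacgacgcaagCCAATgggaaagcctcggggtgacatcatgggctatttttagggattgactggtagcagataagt
Junb (chr8:84978749-84978898, - strand): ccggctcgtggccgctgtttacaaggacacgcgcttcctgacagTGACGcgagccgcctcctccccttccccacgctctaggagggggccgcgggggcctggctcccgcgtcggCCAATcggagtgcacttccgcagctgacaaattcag

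Of the 10 members, 9 had a RefSeq promoter, and 250 bases before each start were searched on both strands. TGACG was found in 5 of the 9, in Atf3, Batf, Fos, Fosb and Junb, beside 17.8% of all 32851 promoters in the table. In Fos it lay 129 to 125 and again 66 to 62 bases before the start, and in Fosb it lay 60 to 56 bases before it. CCAAT was found in Jun and Junb, beside 33.8% of all promoters. TATAAA was found in Fos, beside 12.4% of all promoters. The full cyclic AMP response element TGACGTCA, the AP-1 site TGANTCA and the CArG box, the core of the serum response element, were found in 0 of the 9, beside 1.55%, 6.75% and 1.47% of all promoters. TGACG is also contained in TGACGTCA. These are matches of exact letters in a fixed window, and they show neither binding nor use. Sites farther upstream or with other letters were missed by this search, so a count of 0 does not show that a gene lacks the element.

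The deposited values are RMA intensities, and all levels here are their log2. The table holds no detection calls. The 1215 measured genes of smell, pheromone and taste receptors, taken here as mostly unused by marrow cells, therefore served as the background. Its limit, the 95th percentile of these genes, was 6.30, 5.98 and 5.77 log2 for arrays 1, 2 and 3. A gene was called above the range when it passed the limit of each array. Of the receptor genes themselves 29 did so, and their highest mean was 8.50 log2. Probe sets differ in affinity, so passing the limit does not show transcription and missing it does not show absence. The order of members below is an order of array signal, not of transcript amount. The median probe set intensity was 60.4, 58.0 and 56.7 on arrays 1, 2 and 3, and Pearson's r across genes was 0.940 to 0.951 between pairs of arrays. Of the stem cell markers all 7 measured ones were above the range, among them Procr at 7.39 ± 0.38 log2, Mecom at 8.09 ± 0.22 and Hlf at 10.49 ± 0.30 (SD, n = 3). In sorted bulk cells, fewer cells with a transcript and less of it in each cell cannot be told apart.

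Of the 10 AP-1 genes, 5 were above the background range, beside 36.7% of all measured genes. They were the JUN genes Jun, Junb and Jund, 3 of 3, with Fosl2 from the FOS genes and Batf from the others. Fos and Fosb passed the limit on some arrays, Batf3 on array 3 alone, and Fosl1 and Atf3 on no array, beside 42.1% of all genes that passed it on none. Array by array, 7 members passed the limit of array 1, 5 that of array 2 and 7 that of array 3, beside 39.2%, 49.1% and 55.1% of all genes. The median of the members' mean levels was 6.26 log2, against 5.96 for all measured genes and 4.26 for the receptor genes.

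**Figure D1:**
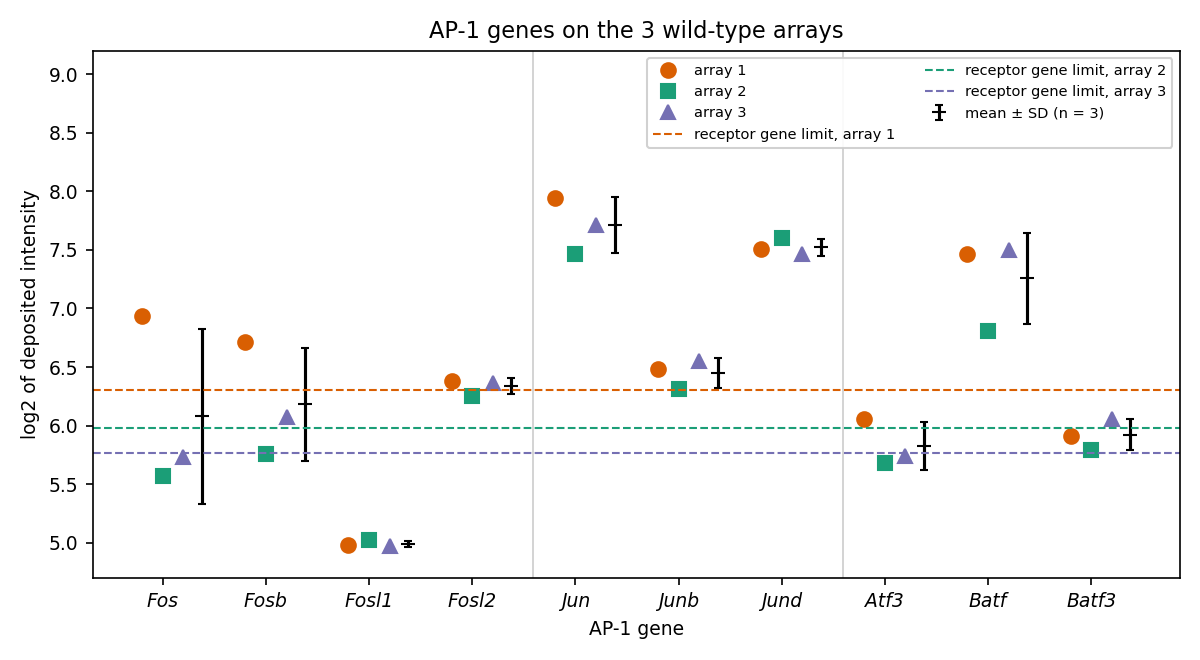
Log2 intensity (y axis) of each AP-1 gene (x axis) on arrays 1, 2 and 3, with the mean and SD of the 3 arrays in black and the receptor gene limit of each array as a dashed line of the array's colour. Fos and Fosb sit highest on array 1, at 6.94 and 6.71, while Jun, Jund and Batf sit above all 3 limits on every array.

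All 3 JUN genes passed the limit of every array, and Jun and Jund had the highest mean signal of the 10 members. Jun, which encodes c-Jun, the main target of the JNK kinases and the usual partner of FOS proteins, stood at 7.95, 7.47 and 7.72 log2 on arrays 1, 2 and 3, a mean of 7.71 ± 0.24 (SD, n = 3). It lay at least 1.49 log2 above the limit of every array, and at least 85.9% of all measured genes were dimmer on each array. Jund, a broadly expressed and weakly inducible JUN gene whose product restrains proliferation, stood at 7.51, 7.60 and 7.46 log2, a mean of 7.52 ± 0.07. The values of Jun and Jund overlapped, and Jun was the higher on arrays 1 and 3. Junb, whose loss in mouse blood cells leads to a myeloproliferative disease, stood at 6.48, 6.31 and 6.55 log2, a mean of 6.45 ± 0.12. Its signal was closer to the background, with gaps of 0.18, 0.33 and 0.78 log2 to the limits of arrays 1, 2 and 3.

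The FOS genes were dimmer, and their members behaved differently across the arrays. Fos, the prototype immediate early gene, stood at 6.94 log2 on array 1 and at 5.57 and 5.74 on arrays 2 and 3, a mean of 6.08 ± 0.75 (SD, n = 3). On the linear scale these were intensities of 122.5, 47.5 and 53.3. Fos was above the limit on array 1 by 0.64 log2, below that of array 2 by 0.41 log2, and just under that of array 3, with a gap of -0.03. Of all measured genes, 0.461% passed the limit on array 1 and on neither other array. Of the receptor genes, 98.4% were dimmer than Fos on array 1, against 89.0% on array 2 and 94.4% on array 3.

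Fosb, a close relative of Fos that is induced by the same signals, had the same order of array 1 over array 3 over array 2. It stood at 6.71 log2 on array 1 and at 5.76 and 6.07 on arrays 2 and 3, a mean of 6.18 ± 0.48. It passed the limits of arrays 1 and 3 and missed that of array 2 by 0.22 log2. Array 1 lay above both other arrays for Fos and for Fosb.

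The genes of the Fos-related antigens had a far smaller spread. Fosl2, which encodes Fra-2, a FOS protein without the strong activation domain of c-Fos, stood at 6.38, 6.26 and 6.37 log2, a mean of 6.33 ± 0.07. Its order of arrays was that of Fos and Fosb, within a range of 0.13 log2, and Jun and Atf3 had this order too. With each array shifted to the same median of its receptor genes, Fos and Fosb alone of the members were highest on array 1. The share of all genes with this order was not counted. Its 3 values lay above the limits by 0.08, 0.28 and 0.60 log2. Fosl1, which encodes the similarly built Fra-1, stood at 4.98, 5.02 and 4.97 log2, a mean of 4.99 ± 0.03, and was below the limit by 0.80 log2 or more on every array. Of the 4 FOS genes Fosl2 alone was above the range, and Fosl1 was the dimmest of all 10 members on each array.

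Among the remaining members Batf stood out in level. Batf, whose product pairs with JUN proteins and with interferon regulatory factors and has been described as a limit on self-renewal of mouse stem cells with DNA damage, stood at 7.46, 6.81 and 7.50 log2, a mean of 7.26 ± 0.39. It was lowest on array 2, but its gap to that array's limit was still 0.83 log2. Batf3, needed for cross-presenting dendritic cells in the mouse, stood at 5.91, 5.79 and 6.06 log2, a mean of 5.92 ± 0.13, and passed the limit of array 3 alone. Atf3, a stress-induced factor of the ATF family, stood at 6.06, 5.68 and 5.74 log2, a mean of 5.82 ± 0.20, and lay under every limit, by 0.03 log2 on array 3. In RefSeq gene order Fos and Batf lie on the same chromosome with 4 genes between them, as do Atf3 and Batf3 with 4 genes between them. Of the first pair Batf passed all 3 limits and Fos that of array 1, and of the second Batf3 passed that of array 3 and Atf3 none.

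In the order of mean signal, from Jun over Jund, Batf, Junb, Fosl2, Fosb, Fos, Batf3 and Atf3 to Fosl1, 7 of the 9 neighbouring pairs had overlapping values. The 2 pairs without overlap were Batf above Junb, by 0.81 log2, and Atf3 above Fosl1, by 0.84 log2. The members thus fell into a bright set of Jun, Jund and Batf, a set of 6 near the limits and Fosl1 below.

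The spread over the arrays ran from 0.03 log2 for Fosl1 to 0.75 for Fos, both of them FOS genes. The median SD of the members was 0.17 log2, against 0.22 for all measured genes. It was 0.27, against 0.26 for all genes, when each array was shifted to the same median of its receptor genes, and 0.07, against 0.18, without array 2. An SD of at least 0.5 log2 was reached by Fos alone, 1 of 10 members beside 11.7% of all genes. Of the 6214 genes with a mean within 0.5 log2 of that of Fos, 97.2% had a smaller SD. The share was 89.5% for Fosb and 66.2% for Batf. At the other end, Fosl1, Fosl2 and Jund had an SD under 0.1 log2, 3 of 10 members beside 15.1% of all genes. Under the shift to one receptor median none of the 10 was under 0.1 log2, with Fosl1 at 0.17, Fosl2 at 0.20 and Jund at 0.15, beside 10.1% of all genes, and with quantile normalization Jund was at 0.16. On the values as deposited, only 4.50% of genes of its level had a smaller SD than Jund, and 8.51% a smaller SD than Fosl2. Without array 1 the SD of Fos was 0.12 log2.

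**Figure D2:**
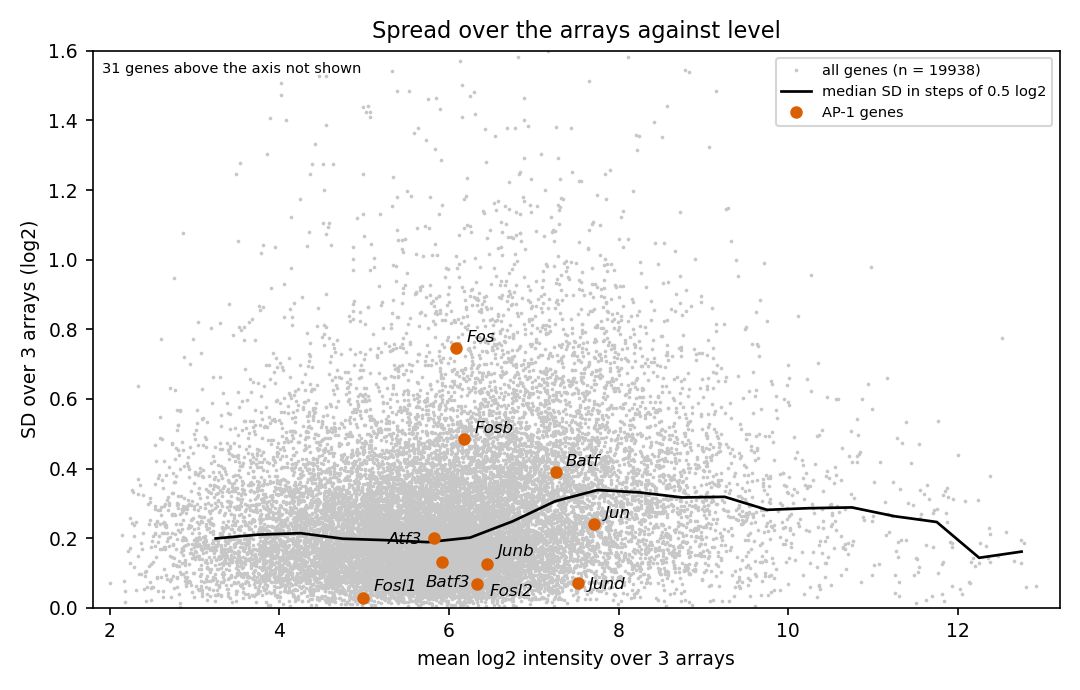
SD over the 3 arrays (y axis, log2) against the mean log2 intensity (x axis) for all 19938 genes in grey, with the AP-1 genes in orange and the median SD per step of 0.5 log2 as a black line. Fos, at an SD of 0.75, and Fosb, at 0.48, lie above the line for their level, while Jund and Fosl2, both at 0.07, lie under it.

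Array 1 held the high values of Fos and Fosb, and array 2 the low values of most members. Fos was 1.28 log2 higher on array 1 than the mean of arrays 2 and 3, or 2.44-fold, and Fosb 0.79 log2, or 1.73-fold. A difference over 1 log2 in this direction was seen for 1 of 10 members, beside 1.28% of all measured genes, and one over 0.5 log2 for 2 of 10, beside 7.51%. A larger difference than that of Fos was seen in 132 genes, 0.662% of all. The next members were Jun at 0.35, Atf3 at 0.35 and Batf at 0.31 log2, and the other 5 lay between -0.02 and 0.07. The median over members was 0.19 log2, against -0.02 for all measured genes and 0.14 for the receptor genes. It was 0.03 when array 1 was set against array 3 alone. Batf, low on array 2, differed by -0.04 from array 3 alone and by 0.66 from array 2 alone. When each array was shifted to the same median of its receptor genes, the median over members changed sign, to -0.02. The median of all genes was then -0.22, while Fos stayed at 1.08 and Fosb at 0.59. Of the 10 members 5 were highest on array 1, beside 31.6% of all genes, a count that was 2 under the same receptor scaling. On array 2, 8 of the 10 were lowest, beside 28.8% of all genes, and on array 1 0, beside 34.1%. The count on array 2 was also 8 with quantile normalization and with either shift of whole arrays.

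Receptor genes, the source of the background range, also held high values on array 1. Of the 1215 receptor genes 6.91% were over 1 log2 higher on array 1 than the mean of the other arrays, against 1.28% of all genes, and 4.03% differed by more than Fos did. For Fosb the share was 9.88%. The limit of array 1 was likewise the highest of the 3. Of the genes other than receptors, 0.913% were over 1 log2 higher on array 1. The part of this feature of the receptor genes in the values of Fos and Fosb was not tested.

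Markers of other cell types also differed between the arrays. Whether their signal came from other cells or from the sorted stem cells was not tested. Of 7 eosinophil, mast cell and basophil markers, 1 was above the range. This was Prg2, the eosinophil major basic protein, at 8.08 log2 on array 1 and at 6.32 and 5.96 on arrays 2 and 3, in the same direction as Fos. The other eosinophil granule genes Prg3 and Epx, like Cpa3, Ms4a2 and Fcer1a, were under the limit on every array, with Prg3 at 5.17 ± 0.15 and Epx at 5.57 ± 0.18 (SD, n = 3). Mcpt8, a basophil protease gene named after its values were seen, went against Prg2, at 5.83 log2 on array 1 and at 6.66 and 7.22 on arrays 2 and 3, and passed the limits of arrays 2 and 3. The summed intensity of the list was 479 on array 1, against 329 and 352 on arrays 2 and 3. Without Prg2 it was 208 on array 1, against 249 and 290. Most granulocyte markers were lower on array 1, 10 of 13 by over 0.5 log2, beside 9.88% of all genes, and 3 were higher. Of the 13, 11 were above the range, and their summed intensity was 10067 on array 1, against 16972 and 16197 on arrays 2 and 3, with S100a8 at 12.08 ± 0.31, S100a9 at 12.37 ± 0.38 and Ngp at 10.26 ± 0.96. The 3 higher ones, named after their values were seen, were Mpo, at 8.29 log2 on array 1 against 7.53 and 7.88, Prtn3, at 7.10 against 6.60 and 7.32, and Cebpe, at 6.42 against 6.36 and 6.28. The part of either list in the AP-1 values was not tested.

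No other marker list had its highest sum on array 1. Monocyte and macrophage markers had 3 of 7 above the range and summed intensities of 959, 1677 and 1154 on arrays 1, 2 and 3, with Csf1r at 5.38 ± 0.12, Lyz2 at 9.61 ± 0.61 and Cd68 at 7.14 ± 0.12. The erythroid list had 2 of 6 above it and sums of 411, 527 and 595, with Klf1 at 5.15 ± 0.27, Epor at 5.90 ± 0.23 and Alas2 at 6.23 ± 0.52. Megakaryocyte markers had 3 of 4 above it and sums of 375, 343 and 490, with Pf4 at 7.23 ± 0.45, Ppbp at 6.22 ± 0.54 and Gp9 at 6.43 ± 0.32. B cell markers had 1 of 6 above it and sums of 297, 321 and 753, with Cd79a at 4.21 ± 0.26, Cd79b at 6.56 ± 0.07 and Pax5 at 6.07 ± 0.16. The pre-B cell gene Vpreb1, named after its values were seen, gave 56.1, 83.1 and 519 of these sums, and without it they were 241, 238 and 234. The T and NK cell list had 1 of 7 above it and sums of 335, 290 and 380, with Cd3e at 6.09 ± 0.31, Cd3g at 4.85 ± 0.27 and Cd4 at 5.65 ± 0.12. Some listed markers, named by this outcome, were under the limit on every array. They were Csf1r, C1qa and Adgre1 for macrophages, Klf1 for erythroid cells, and Cd79a, Ebf1 and Ms4a1 for B cells. For T and NK cells they were Cd3g, Cd4, Cd8a, Ncr1 and Klrb1c. Of the same lists, Lyz2, Cd68, Cx3cr1, Slc4a1, Tfrc, Cd79b and Nkg7 were above the range, so these markers do not show that a cell type was absent.

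**Figure D3:**
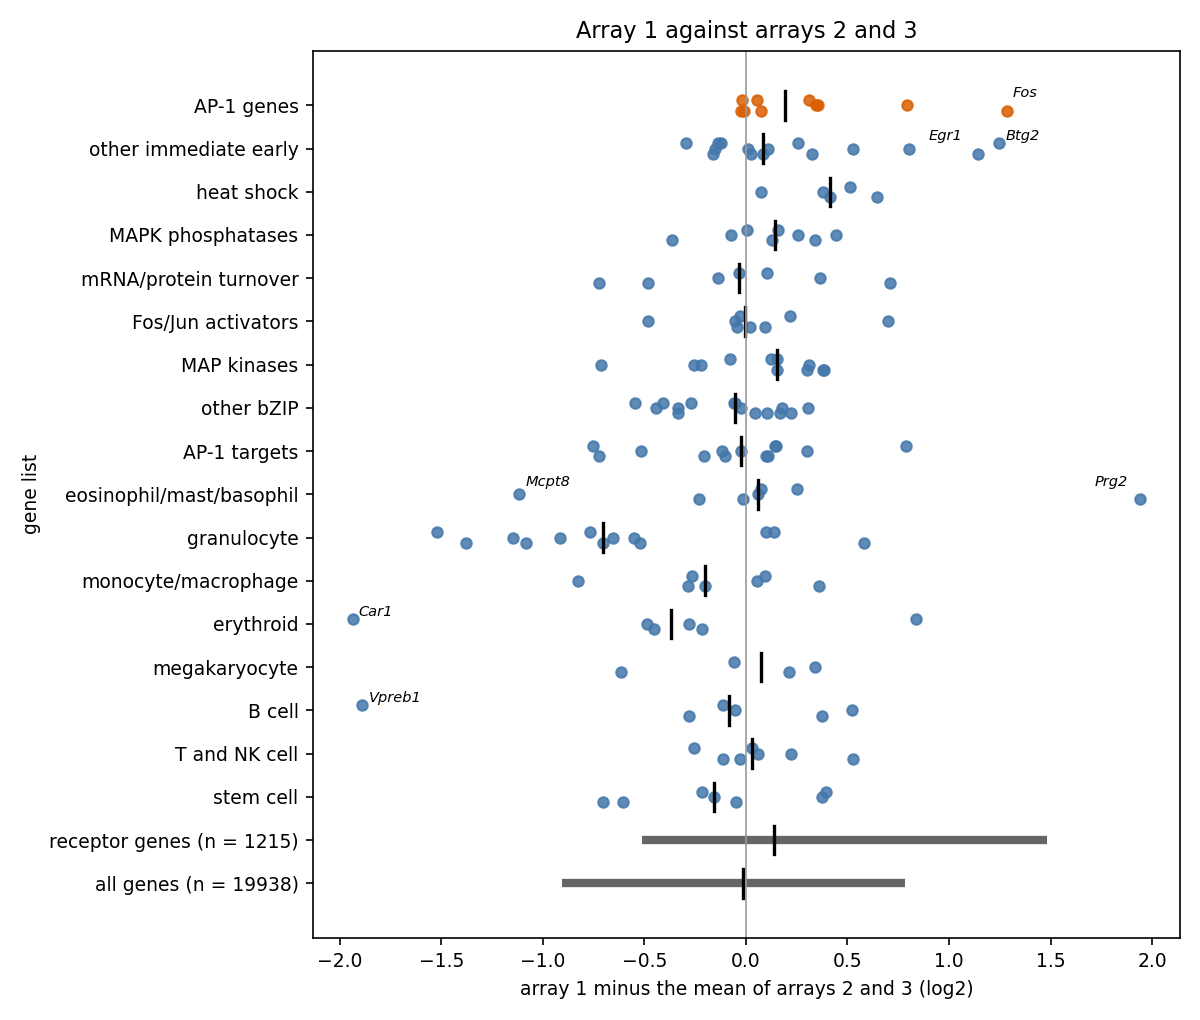
Difference in log2 intensity between array 1 and the mean of arrays 2 and 3 (x axis) for each measured gene of each list (y axis), AP-1 genes in orange, list medians as black bars, and the central 95% of the receptor genes and of all genes as grey bars. Fos at 1.28, Btg2 at 1.25 and Egr1 at 1.14 lie beyond the grey bar of all genes, which ends at 0.78, and within that of the receptor genes, which ends at 1.48.

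The genes around AP-1 in the pathway were mostly above the background range. Over 8 lists of 89 genes, 82 were measured and 56 of them, 68.3%, were above it, beside the 36.7% of all genes, with a median mean level of 6.83 log2. Of the kinases 9 of 11 were above it, Mapk10, the JNK gene of nervous tissue, at 4.55 ± 0.18 log2 and Map2k2, an activator of ERK kinases, at 6.01 ± 0.15 being the exceptions (SD, n = 3). All 8 factors that act on the Fos and Jun promoters were above it. They included the serum response factor gene Srf at 6.47 ± 0.03 and its ternary complex partners Elk1 at 7.41 ± 0.22, Elk3 at 8.38 ± 0.15 and Elk4 at 7.85 ± 0.20. Srf stood at 6.48, 6.43 and 6.49 log2 on arrays 1, 2 and 3 and did not share the high value of Fos on array 1. Mrtfa, of the same list and named after its values were seen, stood at 6.88, 6.54 and 5.82 log2. It was the 1 of the 8 over 0.5 log2 higher on array 1 than the mean of arrays 2 and 3, beside 7.51% of all genes. Of all 82 measured genes of the 8 lists, 9 were over 0.5 log2 higher on array 1, beside the same 7.51%. In the other direction 6 of the 82 were over 0.5 log2 lower, beside 9.88% of all genes.

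Phosphatases, factors of mRNA decay and protein turnover, and other bZIP genes were also above the range in most cases. Of 8 dual-specificity phosphatases, which remove phosphate from MAP kinases, 5 were above it and Dusp4 at 5.44 ± 0.24 log2, Dusp8 at 5.86 ± 0.03 and Dusp10 at 6.19 ± 0.21 were not on all arrays. Of 7 factors of mRNA decay and protein turnover 6 were above it and Zfp36l1, which binds AU-rich elements of short-lived mRNAs, at 5.73 ± 0.31 was not. Of 15 other bZIP genes 10 were above it, and the 5 that were not on all arrays were Jdp2 at 6.40 ± 0.22, Maf at 5.70 ± 0.14, Mafk at 6.41 ± 0.21, Bach2 at 5.48 ± 0.17 and Crem at 5.19 ± 0.31. Jdp2, a repressor that pairs with JUN proteins, and Mafk, a small Maf protein, missed the limit on array 1 alone.

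Genes described as AP-1 targets in other cells were split. Of 13 measured, 5 were above the range: Plaur, the urokinase receptor, at 6.75 ± 0.10 log2, the intermediate filament gene Vim at 9.13 ± 0.17, the hyaluronan receptor gene Cd44 at 7.29 ± 0.14, Ezr at 6.87 ± 0.15 and the cyclin gene Ccnd1 at 6.49 ± 0.15. The share, 38.5%, was close to the 36.7% of all genes. Of the 13, 6 were under the limit on every array, among them the collagenase genes Mmp1a and Mmp13. Array 1 was over 0.5 log2 higher than the mean of arrays 2 and 3 for 1 of the 13, beside 7.51% of all genes. It was over 0.5 log2 lower for 3, beside 9.88%. No target list of stem cells was available, so these genes do not measure AP-1 activity here.

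A few other immediate early genes were over 0.5 log2 higher on array 1, as Fos was, and most differed by less. Of the 15 measured, 10 were above the range, and Egr2 at 5.74 ± 0.48 log2, Nr4a1 at 5.93 ± 0.22, Nr4a2 at 5.98 ± 0.48, Klf4 at 5.98 ± 0.15 and Gadd45b at 5.68 ± 0.02 were not on all arrays. Array 1 was over 0.5 log2 higher than the mean of arrays 2 and 3 for 4 of the 15, beside 7.51% of all genes. It was over 0.5 log2 lower for 0, beside 9.88% of all genes. The 4 were the zinc finger gene Egr1, the antiproliferative gene Btg2, the orphan receptor gene Nr4a2 and Egr2, and Egr1 and Btg2 were named after their values were seen. Egr2 stood at 6.09, 5.93 and 5.19 log2 on arrays 1, 2 and 3, under every limit, so that its difference came mainly from a low array 3. Egr1 stood at 8.09 log2 on array 1 and at 6.96 and 6.92 on arrays 2 and 3, and Btg2 at 7.92, against 6.77 and 6.58. The other 11 lay between -0.29 and 0.33 log2 from array 1 to the others, with Ier2, induced together with Fos in many cells, at 0.02. The median of the list was 0.09 log2.

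The decay factor gene Zfp36, itself an immediate early gene and named after its values were seen, stood at 8.94, 8.08 and 8.37 log2 on arrays 1, 2 and 3. Its order of arrays was that of Fos and Fosb, and also that of Jun and Atf3. Of the 7 factors of mRNA decay and protein turnover, 1 was over 0.5 log2 higher on array 1, beside 7.51% of all genes. Another 1 was over 0.5 log2 lower, beside 9.88%. On the values as deposited, all 5 measured heat shock genes were highest on array 1, beside 31.6% of all genes. Their median difference was 0.41 log2. The count depends on the scaling of the arrays. The median of the receptor genes was 4.39 log2 on array 1 and 4.06 on array 3. For Hspa8, Hsph1 and Hspb1 array 1 exceeded array 3 by less than these medians differ. A shift to one receptor median would put these highest on array 3, and Hspa1a and Dnajb1 on array 1. For Hspb1, under the limit on every array, the values of arrays 1 and 2 were nearly equal, at 5.47 and 5.46 log2, while Hspa1a, the inducible HSP70 gene, stood at 6.58, 5.97 and 5.90 log2. Hspa1a and Hspb1, at 6.15 ± 0.38 and 5.42 ± 0.08 (SD, n = 3), were the 2 of the 5 that missed the range on at least 1 array.

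Across the whole table the genes closest to Fos in their deviations over the 3 arrays were Bnip3, Gpatch2l, Tbrg3, F630111L10Rik and Diaph2, at distances of 0.05 to 0.13 log2. The distance is Euclidean, over the 3 arrays, among 1100 genes above the range with an SD of at least 0.5 log2, of which 60 lay within 0.5 log2 of Fos. Egr1 ranked 12 and Btg2 17 in that order, and Prg2, at a distance of 0.66 log2, ranked 91. Fosb and Nr4a2, each with an SD of 0.48 log2, and Zfp36, at 0.44, were under the minimum SD and so were not ranked. For Jun, whose own SD of 0.24 log2 is under the minimum for the compared genes, the nearest genes were Ep400, Atp6v0a1, Cxxc1, Nop2 and Zfp180, at 0.37 to 0.39 log2.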

How the data were processed

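Expression was measured on 3 arrays of 1 wild-type group. The authors deposited intensities from RMA, and the submitters' processing notes name Affymetrix Expression Console. Not given in the sources used here were software versions, the build and the set of arrays in the RMA run. Values ran from 2.82 to 18384, so the intensity scale was read as linear and log2 was taken without a pseudocount. Of 35554 probe sets 21789 named 1 gene in the platform annotation, 1621 several and 12144 none here; log2 values were averaged over the probe sets of a gene, giving 19938 genes, and 21698 probe sets matched a gene ID of GRCm38. Receptor genes were those with numbered Olfr, Vmn1r, Vmn2r, Tas1r or Tas2r symbols.

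The members and lists were chosen with earlier results of these data known, so values are described without tests. All members were named, with the rarer side of each pathway list (the first 4 genes of a list where that side was empty), the first 3 genes of each marker list and the 5 genes nearest to Fos and to Jun. List genes without a single-gene probe set are not analysed here. The functions were tested on simulated data. Python 3.11.15, pandas 2.3.3 and numpy 2.4.6 were used. The number of arrays, 3, limits the precision.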

Additional observations from a re-analysis of the deposited data

How the results depend on the processing

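The limit of the background range decided the count of members above it, 5 of 10. With the 99th percentile of the receptor genes as the limit it was 3, namely Jun, Jund and Batf, beside 17.3% of all genes. With the 90th percentile it was 8, all but Fos and Fosl1, beside 50.6%. It was 5 against the median of all genes and 5 to 6 when each array was left out, the sixth being Fosb without array 2. The brightest probe set, quantile normalization and a shared receptor median, which also gave 5, say nothing of its stability: each member has 1 probe set, and the scalings keep the order of genes within an array, the limit included. The count of other pathway genes above the range, 56, was 32 at the 99th percentile, and 56 to 65 under the other 8 alternatives. The members highest on array 1, 5 of 10, a count added after the data were seen, were 2 with a shared receptor median, namely Fos and Fosb, and 4 to 6 otherwise. The count of members lowest on array 2, added at the same stage, was 8 with quantile normalization and with either shift, and the other settings could not change either count. Fos was 1.06 to 1.37 log2 higher on array 1 over its 7 alternatives. Of 63 such differences of the other members under alternatives 8 changed sign: Jund to 0.13 with quantile normalization, Fosl2 to -0.13 and Junb to -0.15 with a shared receptor median, Batf to -0.04, Junb to -0.07, Jund to 0.05 and Fosl1 to 0.01 without array 2, and Batf3 to 0.12 without array 3; the cause was not tested. Of the 5 genes nearest to Fos, 1 remained with quantile normalization and 3 without the filter on low values. No paired analysis was possible because the arrays form a single group.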
